A study of Mus musculus with 6 samples.

Results

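The fibroblast growth factor (FGF) genes described here are the ligands, the 4 receptors and the genes that the signal switches on in its own responding cells, measured in embryoid bodies, which are suspended aggregates of differentiating mouse embryonic stem cells. Members were genes with a single platform symbol that is an Fgf gene followed by a number, Fgfr1 to Fgfr4, a Spry gene (1 to 4), a Spred gene (1 to 3), Dusp6, Etv1, Etv4 or Etv5. The rule takes in 37 genes of the RefSeq annotation, and 36 of them were measured, among 18193 genes with 1 symbol. Etv1 was not analysed here, because the platform annotation gives its probe set a further symbol. All cultures came from a stem cell line that expresses a FLAG-tagged Gli1 transgene from the Rosa26 promoter, so the cultures without agonist also carried extra Gli1, a transcriptional activator at the end of the hedgehog pathway. After 2 days in suspension, 3 cultures received 500 nM all-trans retinoic acid for 3 days (RA), and 3 parallel cultures received the same dose of retinoic acid with 50 nM Ag1.3, which activates Smoothened, a membrane protein that passes on the hedgehog signal (RA and Ag1.3). Each replicate number joins an RA culture with its Ag1.3 culture, which gives 3 pairs. The labels name 1 line and do not say whether it is a single clone.

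FGFs are secreted proteins that bind tyrosine kinase receptors together with heparan sulfate. The receptors signal through adaptor proteins and the small GTPase Ras to the kinase ERK, and ERK turns on ETS transcription factors and several inhibitors of the same route, so that the level of these target genes is widely used as a readout of the signal. In the embryo FGF keeps caudal neural progenitors from differentiating, opposes retinoic acid along the body axis, and patterns the midbrain and hindbrain from the isthmus.

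Intensities are the deposited probe set values on a linear scale, 1 array per culture, and where a gene had several probe sets it was read by the brightest on average over the 6 arrays. Array medians ran from 48.79 to 52.71, and correlations across genes between replicates of a group were 0.982 to 0.992, with the caution that genes are not independent. The 18 intensities of the control probe sets with no spike lay between 4.02 and 20.71, and a gene whose mean over the 6 arrays was at or below 20.71 is called near background. All 8 listed genes of neural progenitors were measured above this range, among them Sox2, at 2699 to 2900 in RA and 2462 to 2661 with Ag1.3. The 10 listed genes of pluripotent cells were also above it, among them Nanog, at 591 to 1007 in RA and 368 to 775 with Ag1.3. These levels show that the genes were detected and do not by themselves identify the cells. Fold changes are differences of log2(intensity + 16), Ag1.3 minus RA, from limma's fit with the pair as a block, which understates the change of dim genes. SE is the moderated standard error, intervals are 95% intervals of the log2 fold change, and adjusted p is by Benjamini-Hochberg over the 18193 genes, with 0.05 as the threshold.

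With Ag1.3, 1 of the 36 FGF genes passed the threshold. This was Spry1, which encodes an inhibitor of receptor signalling and fell, so that 2.78% of the FGF genes changed, against a background of 1.39% of all genes, and 1.07% of all genes were called higher and 0.313% lower. Over all genes 195 were higher and 57 lower, and with arrays shifted to equal hybridization spikes 295 were higher and 2413 lower. At an unadjusted p under 0.05 the FGF genes numbered 6, against 14.9% of all genes (16.7% of the FGF genes). Of these, Spry1, Spry2, Spred2, Etv5 and Fgfr2 read lower, against 7.68% of all genes, and Fgfr3 read higher, against 7.24% of all genes. The median log2 fold change was -0.04 over the FGF genes and -0.01 over all genes. All 3 pairs went the same way in 15 of the 36 FGF genes and in 36.7% of all genes, so 3 of 3 pairs is common and is given below as description only. The arrays of the groups did not overlap for 6 of the 36, against 11.8% of all genes. These were Spry1 and Spred2, lower with Ag1.3 (5.56% of the FGF genes, against 5.35% of all genes), and Etv4, Fgf6, Fgf17 and Fgf21, higher (11.1%, against 6.45% of all genes). Of the higher genes, Fgf6 and Fgf21 were near background, with means over the 6 arrays of 6.45 and 1.81, so their separation cannot be read as a change. Whole embryoid bodies were measured, so fewer cells of a type and less RNA per cell cannot be told apart in any of these values.

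**Figure D1:**
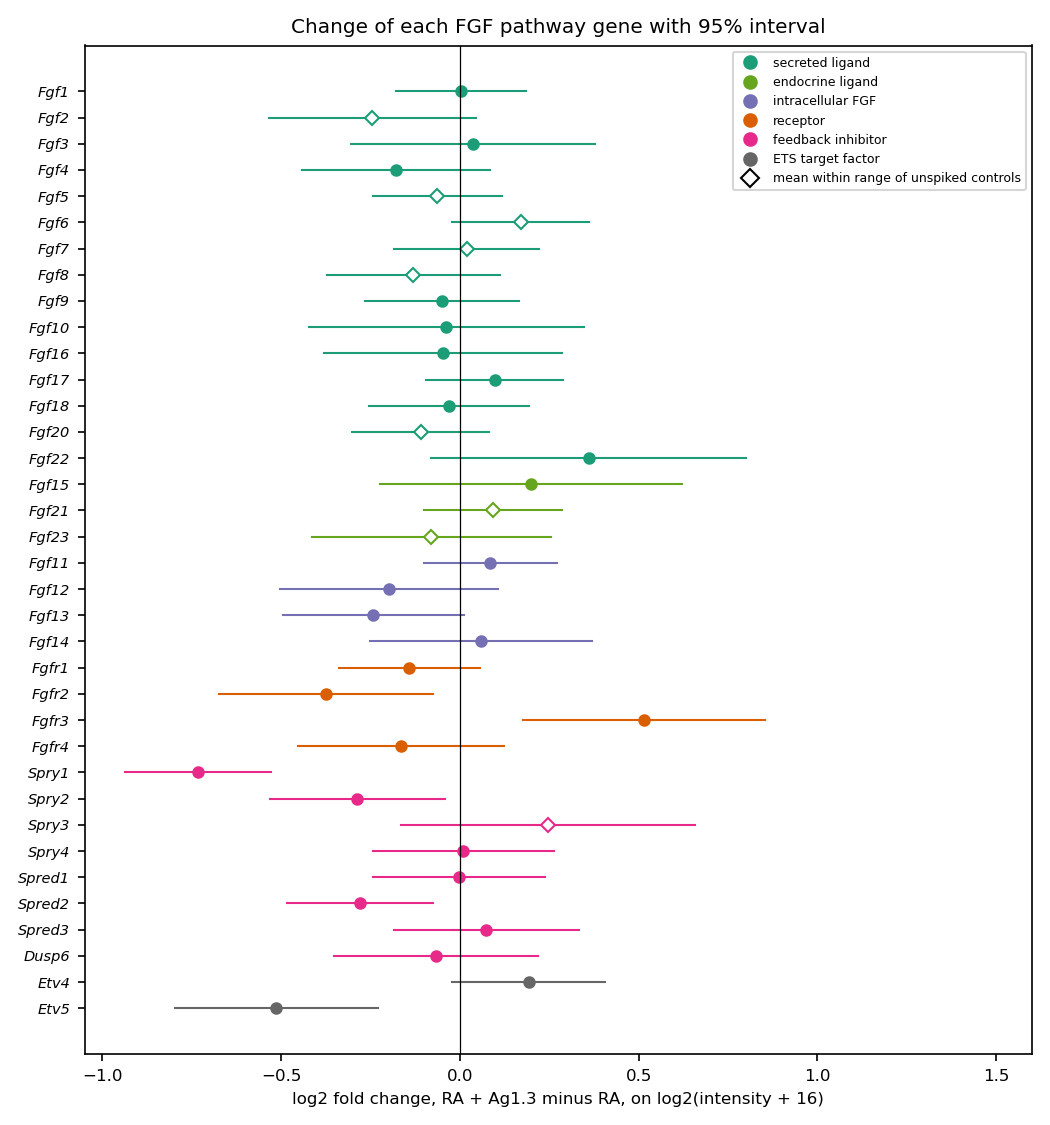
Log2 fold change (Ag1.3 minus RA, on log2(intensity + 16)) of the 36 FGF genes, grouped by role, with points for limma's estimate and lines for its 95% interval from 3 pairs. Open diamonds mark 9 genes near background. Spry1 lies farthest below 0, at -0.73, and Fgfr3 farthest above, at 0.51.

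Spry1 is shown first because it is the FGF gene that passed the test. It belongs to the Sprouty family, membrane-associated proteins that are induced by FGF signalling and restrain the route from receptor to ERK. Its single probe set, 1415874_at, read 241, 281 and 241 in RA replicates 1 to 3 and 131, 156 and 153 with Ag1.3. Every Ag1.3 array lay below every RA array. The mean went from 254 ± 22.8 to 147 ± 13.5 (SD, n = 3 each), a log2 fold change of -0.73 with SE 0.08, an interval of -0.94 to -0.53 and adjusted p = 0.0255, which is 1.66-fold lower. The change was similar in size in every pair, at -0.80, -0.78 and -0.61. Spry1 also passed without the pair as a block (adjusted p = 0.0473), and it passed in 7 of the 11 alternatives tried. It did not pass with any pair left out, where adjusted p was 0.172, 0.159 and 0.0810 without pair 1, 2 and 3 and the log2 fold change lay between -0.79 and -0.70. With a pseudocount of 1 adjusted p was 0.141, and limma's test called 0 of the 18193 genes, of which 13.3% had an unadjusted p under 0.05.

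The promoter sequences of Spry1 and of Etv5 and Fgfr3, the FGF genes with the next smallest p-values, are given for the 250 bases before each RefSeq start on GRCm38.p6, written 5′ to 3′ on the strand of the gene. Capitals mark the GC box, GGGCGG or its reverse complement, the binding motif of Sp factors. Etv5 and Fgfr3 each have 2 starts in the table.
Spry1, chr3:37639697-37639946, + strand: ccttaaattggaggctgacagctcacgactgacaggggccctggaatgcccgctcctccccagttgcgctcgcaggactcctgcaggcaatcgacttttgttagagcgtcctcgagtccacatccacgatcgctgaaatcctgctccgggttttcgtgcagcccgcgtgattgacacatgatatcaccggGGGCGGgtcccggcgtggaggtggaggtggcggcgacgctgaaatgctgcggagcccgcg
Etv5, chr16:22439571-22439820, - strand: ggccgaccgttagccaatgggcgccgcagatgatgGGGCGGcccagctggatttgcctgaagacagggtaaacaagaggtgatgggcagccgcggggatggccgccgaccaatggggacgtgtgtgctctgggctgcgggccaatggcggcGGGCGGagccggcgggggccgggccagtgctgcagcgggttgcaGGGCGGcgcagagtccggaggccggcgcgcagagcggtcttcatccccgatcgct
Etv5, chr16:22438369-22438618, - strand: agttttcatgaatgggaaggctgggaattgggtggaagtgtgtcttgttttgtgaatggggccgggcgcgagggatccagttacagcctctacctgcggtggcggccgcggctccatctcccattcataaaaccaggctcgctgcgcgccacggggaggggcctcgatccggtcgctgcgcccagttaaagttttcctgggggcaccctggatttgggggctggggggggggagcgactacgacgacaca
Fgfr3, chr5:33721474-33721723, + strand: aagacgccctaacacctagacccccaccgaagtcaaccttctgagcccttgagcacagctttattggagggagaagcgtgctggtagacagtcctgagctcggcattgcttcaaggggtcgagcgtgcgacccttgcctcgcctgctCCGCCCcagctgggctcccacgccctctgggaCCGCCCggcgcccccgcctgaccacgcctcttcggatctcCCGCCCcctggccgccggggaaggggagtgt
Fgfr3, chr5:33722056-33722305, + strand: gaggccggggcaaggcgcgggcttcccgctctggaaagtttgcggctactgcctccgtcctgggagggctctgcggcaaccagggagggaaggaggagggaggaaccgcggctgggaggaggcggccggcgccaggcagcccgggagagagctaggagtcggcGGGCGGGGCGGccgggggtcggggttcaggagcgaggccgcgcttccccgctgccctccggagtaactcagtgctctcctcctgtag

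In these 5 windows GGGCGG had 1 match for Spry1, 3 and 0 for the starts of Etv5 as listed, and 3 and 2 for those of Fgfr3, the last 2 of which overlap. Among the 34 windows of the 26 FGF genes in the table, 22 held the GC box on either strand (64.7%), against 32.7% of all 32851 windows of the same length. G and C made up 62.0% to 72.8% of the 5 windows, and the median over all windows was 52.4%. The content of the 34 windows was not measured, so the share with a GC box was not compared at equal G and C content. The motif CCGGAAGT, bound by ETS factors, was in 0 of the 34 windows on either strand, against 2.88% of all windows. The motif GACCACCCA, bound by Gli factors, was also in 0 of the 34, against 0.225% of all. These counts say only that the letters are not in these windows.

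The other Sprouty genes did not pass. Spry2 read 213, 249 and 360 in RA replicates 1 to 3 and 154, 235 and 279 with Ag1.3, lower in 3 of 3 pairs. The arrays of the groups overlapped, since pair 3 was higher than pairs 1 and 2 in both groups. Its log2 fold change was -0.29 with an interval of -0.53 to -0.04 and adjusted p = 0.263. Its further, dimmer probe set gave -0.03. Spry4 read 61.8 to 72.7 in RA and 60.3 to 72.2 with Ag1.3, a log2 fold change of 0.01 with an interval of -0.24 to 0.26. The sign of this value turned to -0.18 with arrays shifted to the spikes. Spry3 was near background, with its highest array at 12.1.

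Spred proteins are relatives of the Sproutys that hold back Ras and its kinase Raf. Spred2 read 590, 599 and 644 in RA and 474, 459 and 575 with Ag1.3, so the groups did not overlap. The log2 fold change was -0.28 with SE 0.08, an interval of -0.48 to -0.08 and adjusted p = 0.205. Its 4 further probe sets gave -0.30, -0.15, -0.05 and 0.07. Spred1, which is lost in Legius syndrome, read 392 to 405 in RA and 372 to 455 with Ag1.3, with an interval of -0.24 to 0.24 around a log2 fold change of 0.00. Its 8 probe sets had log2 fold changes between -0.02 and 0.07. Spred3 gave 0.07 with an interval of -0.19 to 0.33. Dusp6, a phosphatase that removes the activating phosphates of ERK and is among the most used readouts of FGF signalling, read 371, 389 and 328 in RA and 300.4, 356 and 382 with Ag1.3. It was lower in pairs 1 and 2 and higher in pair 3, with a log2 fold change of -0.07, an interval of -0.35 to 0.22 and adjusted p = 0.845.

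**Figure D2:**
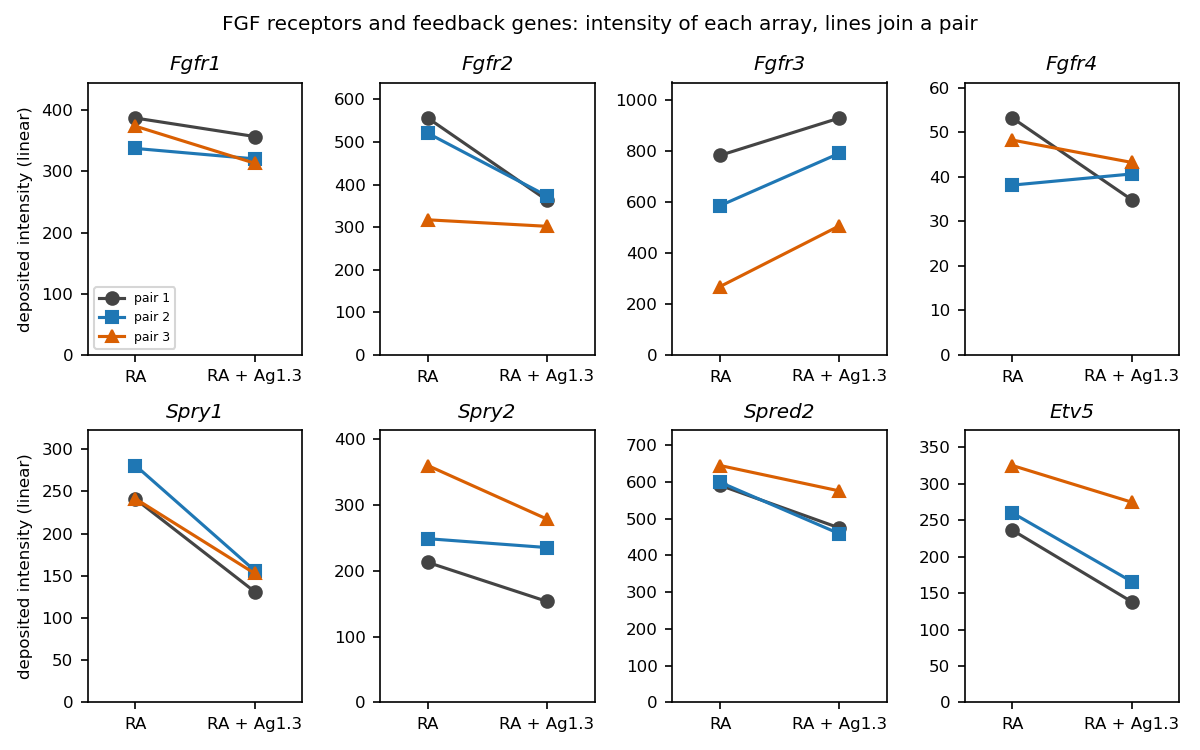
Deposited intensity (linear axis from 0) of the receptors and of 4 feedback genes in each array, with lines joining the RA and Ag1.3 arrays of a pair. Spry1 falls in every pair and its groups do not overlap, while Fgfr3 reads higher in every pair at levels that differ more between pairs than between groups.

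Etv4 and Etv5 are ETS transcription factors of the PEA3 group, which FGF induces in many tissues. Etv5 read 236, 260 and 325 in RA replicates 1 to 3 and 138, 166 and 275 with Ag1.3 in its brightest probe set, 1428142_at. It was lower in 3 of 3 pairs, by 0.71, 0.60 and 0.23 on the log2 scale, and the groups overlapped because the Ag1.3 array of pair 3 read as high as RA arrays of other pairs. The log2 fold change was -0.51 with SE 0.11, an interval of -0.80 to -0.23 and adjusted p = 0.122. It passed in 4 of 11 alternatives, with adjusted p between 0.00127 and 0.723. The 2 further probe sets of Etv5 were also lower in 3 of 3 pairs. The dimmer of them, 1420998_at, read 73.5, 84.3 and 109 in RA and 46.9, 43.8 and 58.5 with Ag1.3, with no overlap between groups. Fitted with all 34945 probe sets of 1 symbol, a fit added after the data were seen, it fell by 0.67 on the log2 scale with adjusted p = 0.0480. Etv4 read 101, 110 and 118 in RA and 121, 139 and 122 with Ag1.3. Here all Ag1.3 arrays lay above all RA arrays, with a log2 fold change of 0.19, an interval of -0.02 to 0.41 and adjusted p = 0.385. Its further probe set gave -0.01, and with arrays shifted to the spikes Etv4 was at 0.0068. The values of Etv4 and Etv5 were on opposite sides of 0, and the difference between them was not tested.

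Among the receptors 0 of 4 passed limma's threshold and 2 had an unadjusted p under 0.05, which were Fgfr3 and Fgfr2, on opposite sides of 0. Fgfr3, which neural progenitors and later astrocyte precursors express, read 783, 586 and 268 in RA replicates 1 to 3 and 930, 791 and 507 with Ag1.3. Each Ag1.3 culture was above its RA partner, yet the groups overlapped because the level was highest in pair 1 and lowest in pair 3. The mean went from 546 ± 260 to 743 ± 216 (SD, n = 3 each), with a log2 fold change of 0.51, SE 0.13, an interval of 0.18 to 0.85 and adjusted p = 0.169. The change was 0.24, 0.42 and 0.88 in pairs 1 to 3. The further probe set of Fgfr3 was also higher in 3 of 3 pairs, with a log2 fold change of 0.33. Fgfr3 passed in 2 of 11 alternatives, and its lowest value over them was 0.33. Without the pair as a block its unadjusted p in limma's test was 0.233 (adjusted p = 0.866).

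Fgfr2, the receptor whose splice forms separate epithelial from mesenchymal ligands, read 556, 521 and 317 in RA and 363, 373 and 302 with Ag1.3. Pairs 1 and 2 changed by -0.59 and -0.46 and pair 3 by -0.07, from an RA level that was already as low as the Ag1.3 arrays. The log2 fold change was -0.37 with SE 0.12, an interval of -0.67 to -0.08 and adjusted p = 0.237. The further probe sets gave -0.12 and -0.14. Fgfr1, a receptor present throughout early neural tissue, read 387, 338 and 374 in RA and 357, 320.5 and 313 with Ag1.3. It was lower in 3 of 3 pairs by small amounts, with a log2 fold change of -0.14, an interval of -0.34 to 0.05 and adjusted p = 0.483. Its other 2 probe sets gave -0.14 and -0.10. Fgfr4, which in the embryo marks endoderm and muscle precursors, read 38.1 to 53.2 in RA and 34.8 to 43.2 with Ag1.3. Its log2 fold change was -0.17 with an interval of -0.45 to 0.12, while 4 dimmer probe sets gave 0.06 to 0.25, so the sign of Fgfr4 rests on the probe set. The labelling starts at the 3′ end, so receptor splice forms are not separated.

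Of the 15 secreted ligands that act on nearby cells, 0 passed limma's threshold and 0 had an unadjusted p under 0.05 in the probe set that represents the gene, with log2 fold changes from -0.25 to 0.36. There were 6 near background, which were Fgf2, Fgf5, Fgf6, Fgf7, Fgf8 and Fgf20, with means over the 6 arrays from 2.75 for Fgf8 to 20.2 for Fgf7. Fgf8, the signal of the isthmus and of the caudal stem zone, read 1.09 to 5.15 in RA and no more than 2.90 with Ag1.3, so no change in it could be read at this signal. Of the other members of its group, Fgf17 read 26.8 to 29.5 in RA and 30.2 to 32.2 with Ag1.3, and Fgf18 27.9 to 44.7 and 31.5 to 38.8. Fgf4, which pluripotent cells secrete to start their own differentiation, read 145, 138 and 176 in RA and 146, 99.2 and 160 with Ag1.3, with a log2 fold change of -0.18 and an interval of -0.44 to 0.08. Its further, dimmer probe sets gave -0.27, -0.0025 and -0.01. Fgf5, the ligand of the primed epiblast, read 7.91 to 14.04 in RA and 7.10 to 12.45 with Ag1.3. Fgf3, a hindbrain ligand, read 34.9 to 55.5 and 45.05 to 51.7, and Fgf10, a ligand of mesenchyme, 18.1 to 24.9 and 13.6 to 25.7. Fgf1 gave a log2 fold change of 0.00 with an interval of -0.18 to 0.19. Fgf22, which organises presynaptic terminals, had the value farthest from 0 among them, at 0.36, with an interval of -0.08 to 0.80 and an RA array at 20.6 that lay below all others. Fgf16 was at -0.05.

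Fgf9, a ligand first found as a growth factor for glia and made by many neurons, gave different results from its 2 probe sets. The brighter, 1420795_at, read 45.2, 51.8 and 52.7 in RA and 40.2, 45.8 and 57.8 with Ag1.3, so that the log2 fold change was -0.05 (adjusted p = 0.845). The dimmer, 1438718_at, read 24.1, 19.0 and 29.4 in RA and 63.8, 39.0 and 61.1 with Ag1.3. All Ag1.3 arrays of this probe set lay above all RA arrays, and it rose by 0.80 on the log2 scale, with an interval of 0.56 to 1.05 and adjusted p = 0.0380 over 34945 probe sets. Which part of the transcript each reads is not given in the sources. In that fit 3 of the 82 probe sets of FGF genes passed (3.66%), against 0.913% of all probe sets, and these were the Fgf9 and Etv5 probe sets just described and that of Spry1. None of the 3 passed in limma's test without the pair as a block, with a pseudocount of 1, or with any pair left out, where the Fgf9 probe set had adjusted p of 0.251, 0.217 and 0.153 without pair 1, 2 and 3, and the Etv5 probe set 0.218, 0.344 and 0.170. The same Fgf9 and Etv5 probe sets had unadjusted p of 0.00281 or less without the block, and the Etv5 probe set also missed the threshold with quantile normalization (adjusted p = 0.0581). Beside the Fgf9 value, 5 of the 7 measured motor neuron genes rose, and their summed intensity was 216 to 267 in RA and 1441 to 2256 with Ag1.3. The summed intensity of 9 general neuron genes was 1969 to 3212 and 5553 to 8024, with 7 of 9 higher. The part of these cells in the Fgf9 value was not tested.

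**Figure D3:**
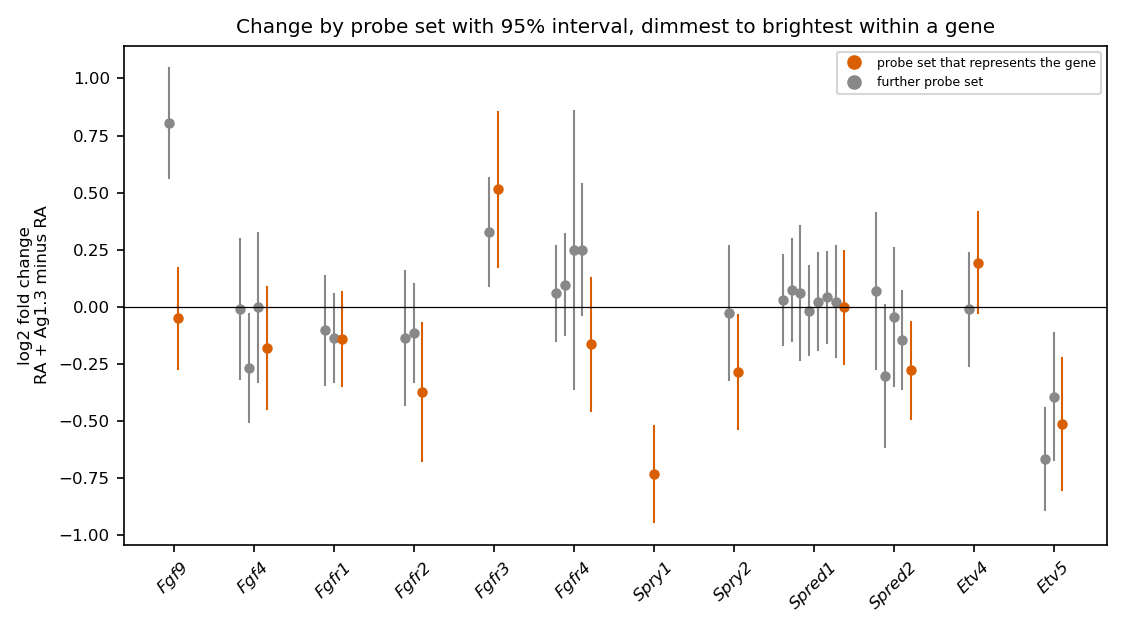
Log2 fold change of each probe set of 12 FGF genes (Ag1.3 minus RA) with 95% intervals from the fit of all probe sets, ordered from dimmest to brightest within a gene. Fgf9 has a probe set at 0.80 and another at -0.05, while the 3 probe sets of Etv5 and the 2 of Fgfr3 lie on the same side of 0.

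Fgf15, Fgf21 and Fgf23 form the endocrine group, of which Fgf15 is also a gene of the embryonic neural tube that hedgehog signalling is known to affect. Fgf15 read 29.9, 41.5 and 56.7 in RA and 51.3, 56.5 and 43.5 with Ag1.3. It was higher in pairs 1 and 2 and lower in pair 3, with a log2 fold change of 0.20 and an interval of -0.22 to 0.62. Fgf21 and Fgf23 were near background. Fgf11 to Fgf14 stay inside the cell and bind sodium channels rather than receptors. Fgf13, which also binds microtubules in growing neurons, read 236, 203 and 125 in RA and 199.7, 144 and 120.1 with Ag1.3. It was lower in 3 of 3 pairs, with a log2 fold change of -0.24, an interval of -0.50 to 0.01 and adjusted p = 0.351. Its further, dimmer probe set gave -0.08 and was higher in 2 of 3 pairs. Fgf11, Fgf12 and Fgf14 gave 0.09, -0.20 and 0.06, with interval bounds between -0.50 and 0.37. Of the 46 further probe sets of all FGF genes, 24 had the sign of the probe set that represents the gene. For the 6 genes at an unadjusted p under 0.05 in limma's test this held for 9 of 10. Those 6 were picked by their p-values in the same arrays, so the 9 of 10 is not independent evidence for them.

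Other genes of the pathway were read from lists of its parts. Among co-receptors and extracellular partners 2 of 20 measured genes rose and 0 fell in limma's test. At an unadjusted p under 0.05, 2 were higher and 4 lower, against 7.24% and 7.68% of all genes. Sulf1, an enzyme that removes sulfate from heparan sulfate and is known from the floor plate, read 52.3, 63.2 and 164 in RA and 208, 167 and 473 with Ag1.3. No Ag1.3 array was below an RA array, and the log2 fold change was 1.45 (SE 0.11, adjusted p = 0.0104). Fgfbp3, a secreted protein that binds FGFs, rose from 1470 ± 408 to 2410 ± 760 (SD, n = 3 each), or by 0.69 on the log2 scale (adjusted p = 0.0366). Beside these, 4 of 6 floor plate genes rose and their summed intensity was 926 to 1075 in RA and 2010 to 3404 with Ag1.3, and the part of that structure in the Sulf1 value was not tested. Sulf1 did not pass without pair 3 (adjusted p = 0.0810) or without the block (adjusted p = 0.490), and Fgfbp3 passed neither without the block (adjusted p = 0.691) nor with any pair left out (adjusted p of 0.183, 0.180 and 0.0947 without pair 1, 2 and 3). The median of the list was -0.01, the same as over all genes. Kl and Klb, co-receptors of the endocrine FGFs, were near background.

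In the relay from adaptors to ERK 0 of 18 measured genes passed limma's threshold. At an unadjusted p under 0.05, 2 were higher and 1 lower, and 14.9% of all genes were past it in either direction. The smallest p was that of Gab1, a docking protein, whose log2 fold change was -0.26 (adjusted p = 0.190). The median was 0.02. Among 16 other targets and dampers of ERK signalling 1 fell, 0 rose, and the median was -0.30. Ier3, an early response gene, read 47.0, 33.1 and 49.1 in RA and 27.8, 17.8 and 30.2 with Ag1.3, and its groups did not overlap. It fell by 0.52 on the log2 scale (SE 0.07, adjusted p = 0.0448). In this list 12 of 16 values were below 0, and 10 were lower and 2 higher at an unadjusted p under 0.05, against 7.68% and 7.24% of all genes. The list was chosen with earlier results of these data known, so these counts are not an independent result. Of its genes 14 lay above the median probe set. In a separate limma fit of the 11434 genes above it, 21.5% had an unadjusted p under 0.05 in either direction. Of the 14 genes, 10 were lower and 2 higher at this level in that fit. Ier3 did not pass without the block (adjusted p = 0.460) or without pair 1, 2 or 3 (adjusted p = 0.277, 0.221 and 0.109). The 10 of 16 that were lower became 2 without the block and 5, 4 and 10 without pair 1, 2 and 3. Il17rd, a membrane inhibitor of FGF receptors also called Sef and named here after its values were seen, read 301, 345 and 371 in RA and 198, 222 and 336 with Ag1.3. Its log2 fold change was -0.43 (adjusted p = 0.174), with the smallest difference in pair 3, as in the brightest probe set of Etv5. The immediate early gene Fos, named in the same way, gave 0.25 with adjusted p = 0.310.

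**Figure D4:**
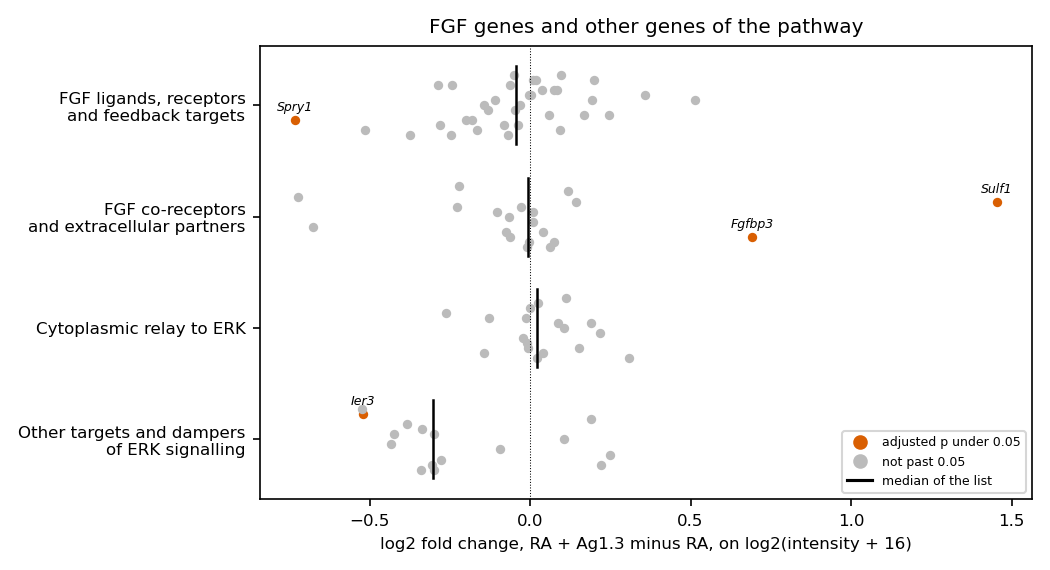
Log2 fold change (Ag1.3 minus RA, on log2(intensity + 16)) of the FGF genes and of 3 lists of other pathway genes, each point a gene and each bar the median of its list. Orange points passed the threshold, and 12 of 16 targets and dampers of ERK signalling lie below 0 with a median of -0.30.

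The listed marker genes of cell types were read in the same arrays. Of all genes 1.07% passed the threshold higher and 0.313% lower. At an unadjusted p under 0.05 in limma's test these shares were 7.24% and 7.68%. Genes of pluripotent cells, which express Fgf4 and respond to it, had 10 of 10 values below 0, with 1 past the threshold and 9 lower at an unadjusted p under 0.05. Their summed intensity was 5576 to 9456 in RA and 3480 to 7224 with Ag1.3, with a median log2 fold change of -0.66. Dorsal and intermediate progenitor genes fell in 5 of 10 and had sums of 2093 to 5371 and 549 to 1316, and all 6 ventral progenitor genes rose, with sums of 129 to 232 and 2657 to 3476. General neural progenitor genes had 0 of 8 past the threshold, with 3 higher and 1 lower at an unadjusted p under 0.05. Their sums were 5909 to 8816 and 6927 to 9020. Isthmus genes had sums of 424 to 463 and 309 to 380, with En1 and Otx2 near background. The 1 of 7 called lower was En2, whose mean went from 150 in RA to 51.5 with Ag1.3. The median log2 fold change of the list was 0.05, and 4 of 7 values were above 0. In caudal epiblast and paraxial mesoderm 1 of 9 genes fell, with sums of 430 to 461 and 387 to 404 and with Msgn1, Cdx4 and Hes7 near background. The gene that fell was Uncx, whose mean went from 55.9 in RA to 6.19 with Ag1.3, and 4 of 9 values were above 0. Endoderm genes had 1 of 8 lower, with sums of 498 to 798 and 602 to 746 and with Afp and Apoa1 near background. Neural crest and glial genes had 0 of 7 past limma's threshold and 2 of 7 higher at an unadjusted p under 0.05. Their sums were 499 to 544 and 563 to 592. Endothelial and blood genes had 0 of 8, with 1 higher and 1 lower at an unadjusted p under 0.05. Their sums were 288 to 364 and 344 to 380, with Hba-a1, Hbb-bh1 and Ptprc near background. Without pair 1, 2 and 3 the counts past the threshold were 5, 4 and 3 of 6 for ventral progenitors, 1, 1 and 4 of 10 for dorsal and intermediate progenitors, 3, 2 and 4 of 7 for motor neurons, 4, 2 and 4 of 9 for general neurons and 3, 4 and 2 of 6 for the floor plate. Without the block 0 of 10 pluripotent genes had an unadjusted p under 0.05 in limma's test. The part of any of these cell types in the values of Spry1, Etv5, Fgfr2 and Fgfr3 was not tested.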

How the data were processed

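Total RNA of 6 cultures was labelled with a 3' IVT Express kit and hybridized to Affymetrix arrays, per the labels' protocols. The deposited values are probe set intensities on a linear scale, and how the authors summarised and scaled them is not given in the sources used here. Of 45101 probe sets 64 controls were left out, and 34945 had 1 symbol in the platform annotation. Each of 18193 genes was represented by the probe set with the highest mean log2(intensity + 16). The treatment term was tested, two-sided, with lmFit and eBayes of limma 3.58.1 (R 4.3.3), with the replicate number as a block, since the series' design text pairs parallel cultures. Deviations from group means correlated across genes at 0.54, 0.19 and 0.56 within pairs. P-values rest on the spread between 3 pairs of cultures of 1 line, combined by eBayes with a prior variance drawn from all genes. The prior had 3.49 degrees of freedom and the residual of a gene 2, so each p-value depends on the prior as well as on the gene's own pairs. Precision is limited by the number of arrays. The script was tested on simulated data. The 36 FGF genes and all lists were chosen with earlier results of these data known. Named pathway genes were, per list, up to 4 past the threshold with the smallest adjusted p, or the 1 with the smallest p. All 36 symbols matched RefSeq by gene identifier, and promoter sequences are RefSeq's (GRCm38.p6). Marker sums are over deposited intensities. There were 11 alternatives: no block, pseudocounts of 1 and 64, genes above the median probe set, the mean of probe sets, quantile normalization, a shift to equal hybridization spikes, a prior variance that follows intensity, and each pair left out.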

Additional observations from a re-analysis of the deposited data

How the results depend on the processing

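Of 375 log2 fold changes of FGF genes under the 11 alternatives, 327 kept their sign and their side of the threshold, 13 came to pass it, 4 no longer passed (Spry1) and 31 changed sign. Genes changed numbered 252, against 86 when the replicate block was dropped, 0 with a pseudocount of 1, 831 with 64, 951 among genes above the median probe set, 2708 with the spike shift, 891 with a prior variance that follows intensity, and 35 to 62 with a pair left out. FGF genes lower numbered 1, against 0 with a pseudocount of 1 (unadjusted p = 0.00109 for Spry1 in limma's test), 2 with 64 (Etv5 joined), 2 above the median probe set, 8 with the spike shift, 3 with the intensity-following prior (Etv5 and Spred2 joined) and 0 to 0 with a pair left out, where Spry1 had an unadjusted p of 0.00179 or less. FGF genes higher numbered 0, against 1 (Fgfr3) above the median probe set and 1 with the intensity-following prior. The share of all genes called rose in the same settings, from 1.39% to 4.57% with a pseudocount of 64 and 14.9% with the spike shift. With the intensity-following prior it was 4.9%. Above the median probe set it was 8.32% of 11434 genes, where 15 FGF genes were tested. The replicate block changed the call of no FGF gene in its brightest probe set, while the further Fgf9 and Etv5 probe sets did not pass without it (adjusted p = 0.201 and 0.238). The spikes are added at hybridization, and that shift moved the median of all genes to -0.19, so its values are to be read relative to this. Under it log2 fold changes turned to -0.18 for Fgf1, -0.15 for Fgf3, -0.015 for Fgf6, -0.17 for Fgf7, -0.088 for Fgf17, -0.092 for Fgf21, -0.10 for Fgf11, -0.13 for Fgf14, -0.18 for Spry4 and -0.11 for Spred3. With the mean of probe sets they turned to -0.065 for Fgf3, -0.15 for Fgf7, 0.38 for Fgf9, 0.10 for Fgfr4, -0.049 for Spry4 and 0.028 for Spred1, and with quantile normalization to 0.0038 for Spred1. With a pair left out the range was -0.0089 to 0.017 for Fgf1, -0.15 to 0.17 for Fgf3, -0.038 to 0.063 for Fgf7, -0.20 to 0.18 for Fgf10, -0.054 to 0.22 for Fgf14, -0.20 to 0.12 for Fgf16, -0.12 to 0.028 for Fgf18, -0.20 to 0.10 for Fgf23, -0.11 to 0.051 for Spred1, -0.047 to 0.15 for Spred3, -0.076 to 0.12 for Spry4 and -0.21 to 0.044 for Dusp6. The cause of these changes was not tested. Signal over background limits the 9 genes near background.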
